A study of Danio rerio with 23 samples.

Results

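Zebrafish embryos that make extra dkk1b, a secreted Wnt antagonist, from a heat-shock promoter (hs:dkk1b) were compared with their siblings at 7.5 hours post fertilisation (hpf), during gastrulation. The comparison uses 6 of the 23 RNA-seq libraries of the series, 3 of transgenic embryos and 3 of siblings, chosen by the sample titles and by no measured value. The fish crossed were hs:dkk1b/+ carriers and wild-type fish. Transgenic embryos were recognised by fluorescence, and their siblings, genotypically wild type, went through the same heat shock of 60 minutes at 37 °C before recovery at 29 °C. The transgenic embryos thus differ from the siblings by the hs:dkk1b transgene, inherited from the carrier parent only, and both groups share the heat shock. The titles give 7.5 hpf and the time point field 7 hpf, and the labels do not say what each of these times refers to. Whole embryos were homogenised, the number per library is not stated, and a heat-shock promoter drives the transgene in all cell types, so the libraries hold every tissue of the embryo at once. In whole embryos fewer cells of a type and less of an RNA per cell cannot be told apart. Embryos came from several mating pairs, but whether the libraries of 1 group stem from different clutches is not stated. The p-values therefore measure only how far libraries spread, as estimated over all 23 libraries of the series together, and that spread may be technical.

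In the canonical Wnt pathway a ligand binds a Frizzled receptor together with an Lrp5 or Lrp6 co-receptor, β-catenin is spared from a destruction complex built on Axin, and it then works with Tcf and Lef factors on target genes. Dkk1 binds the Lrp co-receptors and keeps the ligand from using them. In the zebrafish gastrula Wnt ligands of the margin posteriorise the neural plate and maintain the tailbud progenitors of mesoderm and spinal cord, while the most anterior neural plate, which forms forebrain and eyes, develops where Wnt activity is low. Several inhibitors of the pathway, axin2, nkd1 and notum1a among them, are themselves Wnt targets, so their levels are often read as a gauge of pathway activity.

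The transgene was present in the libraries as labelled. In the siblings dkk1b (ENSDARG00000045219) stood at 44.0, 18.4 and 54.0 CPM (counts relative to library size, TMM-scaled) in replicates 1, 2 and 3, and in the transgenic embryos at 19063, 2329 and 3499.9 CPM. Every transgenic library was thus far above every sibling library, and replicate 1 was highest among them. The log2 fold change was 7.24 ± 0.51 (adjusted p = 6.79e-06) by edgeR's quasi-likelihood test, and dkk1b is left out of all counts that follow. Total counts in the 6 libraries ran from 15390061 to 17183937. Replicate 1 stood apart in both groups by its heat-shock RNA, with the chaperone gene hsp70l at 1228 CPM in siblings and 2654 CPM in transgenic embryos, while the remaining 4 libraries held between 40.7 and 78.0 CPM. For that reason the counts below are also given without replicate 1. Libraries with the same replicate number deviated from their group means together (correlations across genes of 0.61, 0.53 and 0.46 for replicates 1, 2 and 3), and the test therefore pairs transgenic embryos and siblings by number. Log2 fold changes are given ± SE, taken as the absolute log2 fold change over the square root of the F value of the test. A gene is said to rise or fall where the adjusted p of this paired test, corrected by the Benjamini-Hochberg method over all tested genes, is under 0.05.

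Far more genes were lower than higher in embryos with the Wnt antagonist. Of 19503 genes tested, 145 changed (0.743%), 115 of them lower in hs:dkk1b embryos (0.59%) and 30 higher (0.154%). The falls were also larger, with 55 genes lower and 7 higher by at least 1 on the log2 scale, and 12 lower by at least 2. Scarce genes were part of this, as 18 of the 145 were under 5 CPM in both groups. In 143 of the 145 all 3 pairs moved the same way, and in 129 the transgenic and sibling libraries did not overlap, against 8.5% of all tested genes. Of these 129, 105 were lower and 24 higher. Over all tested genes, called or not, the transgenic libraries all lay below the siblings for 3.75% and all above them for 4.74%. The 145 were called on these same libraries, so their separation follows in part from the call and is no added evidence. Among the 115 lower genes the median log2 ratio within a pair was -1.01, -0.93 and -0.82 in replicates 1, 2 and 3, and among the 30 higher genes 0.76, 0.66 and 0.62. Replicate 1, which had the most dkk1b and hsp70l, held the largest ratio for 60 of the 115 lower genes, replicate 2 for 42 and replicate 3 for 13, and the part of either gene in this was not tested.

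How many genes passed depended on the pairing and on each pair. Without the pairing 29 genes passed, all lower and all among the 145 (519 genes had an unadjusted p under 0.05). Leaving out both libraries of replicate 1, 2 or 3 gave 52, 62 and 61 genes, with 2, 4 and 4 of them higher. Without replicate 1 this was 0.269% of the genes tested, 0.258% lower and 0.0103% higher. All 145 kept their direction in each of these fits, and 43 passed in all 3, the higher ones among these being foxh1 and sox2. A set of 23 genes passed with the pairing, without it and without each pair. For the genes named below, the adjusted p without the pairing or without a pair is given where it ended the call. The count of changed members in each list below is to be set against 0.59% of all tested genes lower and 0.154% higher.

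**Figure D1:**
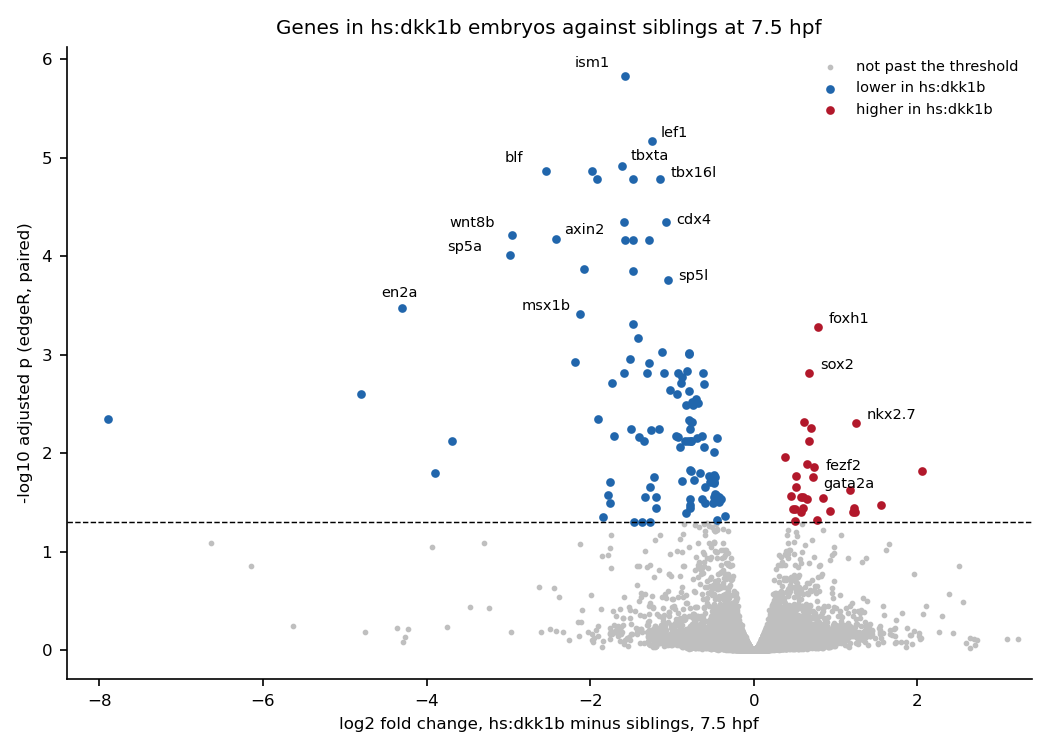
Each point is 1 of the 19503 tested genes, with dkk1b left out. The horizontal axis gives the log2 fold change of hs:dkk1b embryos over siblings, the vertical axis the -log10 of the adjusted p of the paired edgeR test, and the dashed line the threshold of 0.05. The highest estimate, 7.93, lies beyond the right end of the axis and is not drawn. Within the range drawn, the 115 lower genes reach further from 0 and higher up than the 30 higher genes. The point farthest to the left is a gene at 0 in every transgenic library, and its fitted value is no bound.

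Of the feedback inhibitors that act inside the cell, axin2 and nkd1 fell. The destruction complex scaffold axin2 (ENSDARG00000100149) stood at 169, 130.5 and 132 CPM in the siblings and at 22.4, 30.3 and 27.5 CPM in the transgenic embryos. The dishevelled-binding inhibitor nkd1 (ENSDARG00000020053) went from 50.4, 52.1 and 56.9 CPM to 13.0, 12.1 and 17.4 CPM. For both genes the 3 transgenic libraries lay far below the 3 sibling libraries and close to each other. The log2 fold changes were -2.42 ± 0.23 (adjusted p = 6.63e-05) and -1.92 ± 0.16 (adjusted p = 1.65e-05), which is 5.35-fold and 3.78-fold lower. Both passed without the pairing and without each pair. These were 2 of 6 tested members of the list of intracellular feedback genes, whose median log2 fold change was -0.19 against 0.01 over all genes. The other 4, axin1, apc, ccdc88c and nkd2a, did not pass, with axin1, the constitutive Axin, at -0.07 ± 0.07.

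In the list of secreted and membrane-bound antagonists of Wnt signalling, 4 of 13 tested genes fell and none rose. The gene ism1, described below, is counted here as a member of that list. Levels of notum1a (ENSDARG00000031126), which encodes an enzyme that strips the lipid from Wnt ligands, were 67.5, 45.7 and 59.6 CPM in siblings and 14.8, 17.5 and 11.4 CPM in transgenic embryos. Its paralogue notum1b (ENSDARG00000117145) was scarce, at 4.58, 2.82 and 2.43 CPM and 0.564, 0.569 and 0.948 CPM. The membrane protein gene tpbga (ENSDARG00000099609), an inhibitor of Wnt reception in zebrafish, was at 85.6, 62.8 and 85.6 CPM and 24.2, 27.6 and 25.7 CPM. In all 3 genes the groups were well apart, and the highest transgenic library held less than the lowest sibling library. The log2 fold changes were -1.98 ± 0.16 (adjusted p = 1.36e-05), -2.19 ± 0.28 (adjusted p = 0.00118) and -1.58 ± 0.14 (adjusted p = 4.50e-05).

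The smallest adjusted p of any gene other than the transgene belonged to ism1 (ENSDARG00000020541), which encodes the secreted protein isthmin. It was measured at 77.0, 90.7 and 77.3 CPM in siblings and 26.9, 29.1 and 26.1 CPM in transgenic embryos, and both groups were tight. Its log2 fold change was -1.57 ± 0.09 (adjusted p = 1.47e-06). The median of the list was -0.41, and the 4 genes also passed without the pairing and without each pair. The inhibitor gene wif1 was at -0.90 ± 0.21 (adjusted p = 0.0733) and the Frizzled-related gene frzb at -0.41 ± 0.10 (adjusted p = 0.0955), neither past the threshold. The dkk genes dkk3a and dkk3b, relatives of the transgene's own product, were at -0.79 ± 0.50 and -0.40 ± 0.25.

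Among the 5 Tcf and Lef factors, through which β-catenin acts, lef1 fell and none rose. The level of lef1 (ENSDARG00000031894) was 66.0, 85.3 and 64.7 CPM in siblings and 26.2, 40.5 and 25.8 CPM in transgenic embryos, with replicate 2 the highest library in both groups. The log2 fold change was -1.24 ± 0.09 (adjusted p = 6.79e-06), and the call held without the pairing and without each pair. The other activating factor, tcf7, was at -0.67 ± 0.15 (adjusted p = 0.0563), just short of the threshold. The other members had estimates above 0 that did not pass, tcf7l1a at 0.51 ± 0.13, tcf7l1b at 0.52 ± 0.15 and tcf7l2 at 0.51 ± 0.15, the first pair being repressive Tcf factors needed for head formation in zebrafish. This gave the list a median of 0.51 although its single change was a fall. In the authors' deposited TPM, which are per length, sibling levels (mean ± SD, n = 3) were 91.1 ± 6.28 for tcf7l1a, 28.3 ± 0.640 for tcf7l1b, 37.0 ± 3.61 for lef1, 16.7 ± 2.83 for tcf7 and 2.74 ± 0.133 for tcf7l2.

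**Figure D2:**
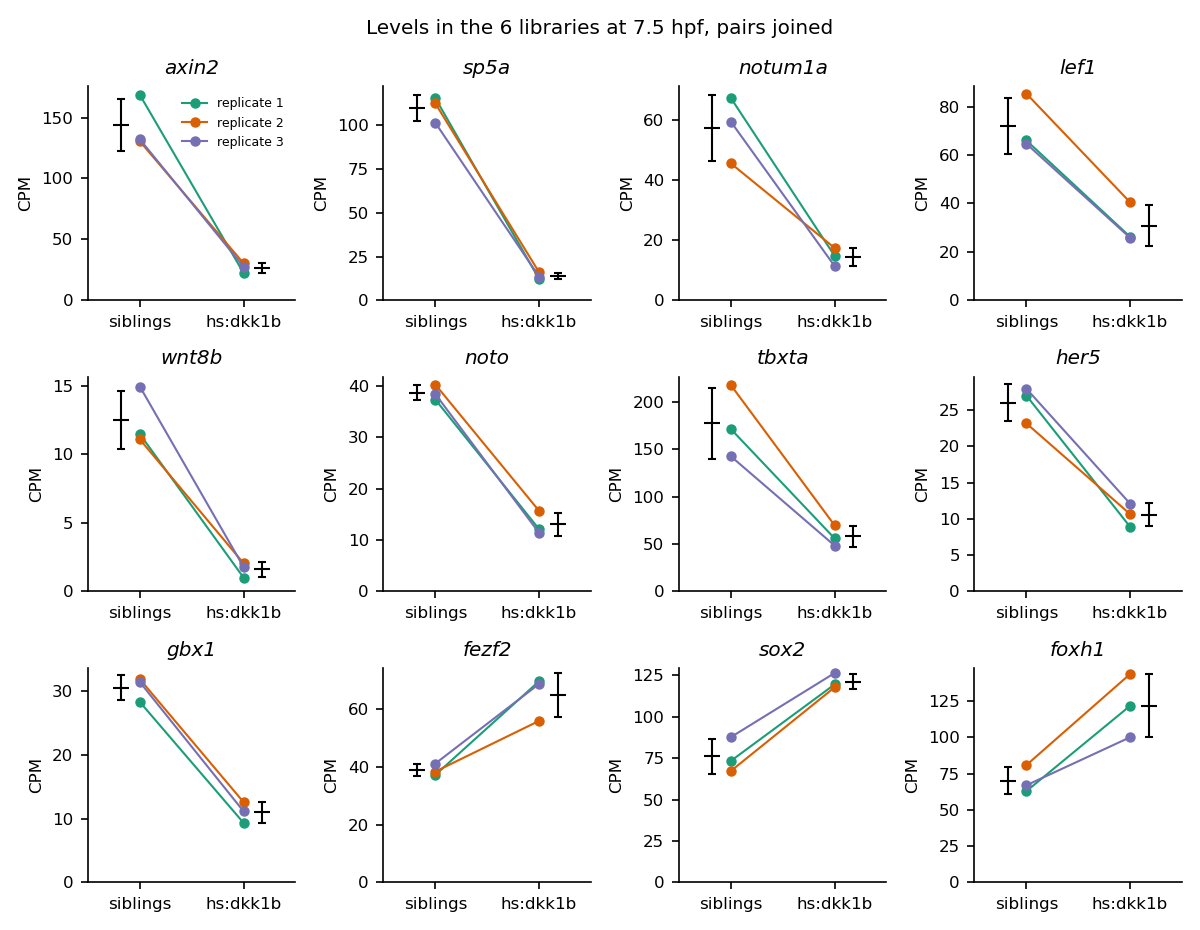
CPM of 12 genes in the 6 libraries, 1 panel per gene with a vertical axis that starts at 0, with siblings to the left and hs:dkk1b embryos to the right and lines joining libraries of the same replicate number. Black marks are the mean and SD of the 3 libraries. In 9 panels every line falls, and in those of fezf2, sox2 and foxh1 every line rises.

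The list with the largest share of changed members was that of transcription factor genes known as Wnt targets: 11 of 15 fell, none rose, and the median was -1.42. Like every list used here, it was compiled with earlier results of these data known. The direction of a list is therefore no independent evidence. The Sp-family gene sp5a (ENSDARG00000076571), a direct target, stood at 115, 112 and 101 CPM in siblings and 12.2, 16.1 and 13.6 CPM in transgenic embryos, which is 7.90-fold lower. Its relatives sp8b and sp5l were at 37.4, 38.0 and 43.7 CPM against 8.77, 9.56 and 13.7 CPM, and at 440.1, 541 and 349.8 CPM against 219.9, 265 and 159 CPM. Groups did not overlap for any of these, but the Sp genes fell to unequal degrees, with log2 fold changes of -2.98 ± 0.30 (adjusted p = 9.69e-05), -1.91 ± 0.29 (adjusted p = 0.00447) and -1.05 ± 0.11 (adjusted p = 1.73e-04).

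Of the other targets, blf (ENSDARG00000043126), a zinc finger gene of the gastrula, went from 177, 177 and 163 CPM to 30.6, 24.0 and 35.3 CPM, 5.81-fold lower, with a log2 fold change of -2.54 ± 0.20 (adjusted p = 1.36e-05). The homeobox gene msx1b, of the neural plate border and ventral ectoderm, was at 91.5, 87.2 and 95.7 CPM and 19.9, 22.4 and 20.4 CPM, and msx1a at 41.7, 36.2 and 36.2 CPM and 16.5, 11.2 and 12.7 CPM. All libraries of a group agreed closely for both. Their log2 fold changes were -2.13 ± 0.24 (adjusted p = 3.86e-04) and -1.51 ± 0.19 (adjusted p = 0.00111). The related zinc finger genes znf703 and znf503, which act in hindbrain patterning, fell by 1.42 and 1.59 on the log2 scale (adjusted p = 6.81e-04 and 0.00152). The tailbud genes tbxta, cdx4 and cdx1a complete the 11 and are described below. Without the pairing 7 of the 11 passed, and 9 passed without each pair. The calls lost without the pairing were those of msx1a, sp5l, cdx4 and cdx1a (adjusted p = 0.0581, 0.0695, 0.0501 and 1). Without replicates 1, 2 and 3 in turn, sp8b had adjusted p of 0.0820, 0.0609 and 0.0350 and cdx1a of 0.214, 0.0863 and 0.145. Of the members that did not pass, the cell cycle gene ccnd1 was at -0.13 ± 0.09 and the Myc genes mycn and myca at -0.18 ± 0.13 and 0.21 ± 0.30.

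Of 10 tested entries in the list of ligands, 3 fell and none rose. Over all 13 tested entries with a Wnt ligand name, the same 3 fell and none rose. The largest fall was that of wnt8b (ENSDARG00000006911), a ligand of the forebrain and midbrain, from 11.5, 11.1 and 14.9 CPM to 1.00, 2.05 and 1.78 CPM, a log2 fold change of -2.95 ± 0.28 (adjusted p = 6.14e-05). All 3 transgenic libraries held a small fraction of any sibling library. The ligands of convergence and extension wnt11 and wnt5b, which signal mostly outside the β-catenin branch, were at 70.9, 53.8 and 54.5 CPM against 40.0, 32.6 and 31.8 CPM and at 47.6, 43.8 and 46.9 CPM against 27.1, 33.9 and 31.0 CPM. Both moved by less than 1 on the log2 scale, at -0.78 ± 0.14 (adjusted p = 0.0148) and -0.59 ± 0.11 (adjusted p = 0.0220). The midbrain-hindbrain ligands wnt1 and wnt10b were scarce and did not pass, at -1.79 ± 0.42 (adjusted p = 0.108) and -2.12 ± 0.49 (adjusted p = 0.0836). The marginal ligand wnt8a has 2 entries that share its name and possibly its reads. Neither passed, wnt8a_1 being at 0.28 ± 0.88 and wnt8a_2 at -0.35 ± 0.17. The calls of wnt11 and wnt5b were lost without the pairing (adjusted p = 1 and 0.0739). That of wnt11 was also lost without each pair (adjusted p from 0.0991 to 0.159). For wnt5b the adjusted p without single pairs ran from 0.0412 to 0.298, so its call was not lost in every such fit. The call of wnt8b held without the pairing and without each pair.

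Frizzled receptor genes moved in both directions. The genes fzd10 and fzd9b fell, from 63.5, 57.2 and 59.3 CPM to 25.4, 23.9 and 26.1 CPM and from 26.6, 27.8 and 30.7 CPM to 13.0, 13.8 and 11.5 CPM. The forebrain-expressed receptor gene fzd8a rose, from 65.9, 79.9 and 62.1 CPM to 114, 113 and 98.5 CPM. In each of the 3 the groups were apart. Log2 fold changes were -1.25 ± 0.20 (adjusted p = 0.00574), -1.15 ± 0.18 (adjusted p = 0.00569) and 0.65 ± 0.12 (adjusted p = 0.0128), and the other 15 tested receptor and co-receptor genes did not pass, lrp6 among them at 0.24 ± 0.09. Without the pairing the 2 falls passed and fzd8a did not (adjusted p = 0.0739). None of the 3 passed in all of the fits without a pair, the adjusted p of fzd10 being 0.0968, 0.0673 and 0.0632 without replicates 1, 2 and 3, that of fzd9b 0.0551, 0.0462 and 0.106 and that of fzd8a 0.205, 0.0603 and 0.138.

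In the machinery that carries the signal no change was found: of 18 tested genes for β-catenins, Dishevelleds, kinases and cofactors 0 passed by edgeR with the pairing, 0 without it and 0 by DESeq2, and 2 had an unadjusted p under 0.05. Estimates in the list lay between -0.35 and 0.24 on the log2 scale. The gene of β-catenin itself, ctnnb1, was at 2515 ± 82.5 CPM in siblings and 2730.4 ± 208 CPM in transgenic embryos (mean ± SD, n = 3 each), a log2 fold change of 0.12 ± 0.08. Of 15 planar polarity genes dact1, whose product binds Dishevelled, fell at -0.78 ± 0.12 (adjusted p = 0.00569), and prickle2b rose at 0.51 ± 0.10 (adjusted p = 0.0220). Neither passed without the pairing (adjusted p = 0.0695 and 0.504), and both passed only when replicate 2 was the pair left out (adjusted p = 0.104, 0.0210 and 0.0993 and 0.282, 0.0281 and 0.282 without replicates 1, 2 and 3).

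**Figure D3:**
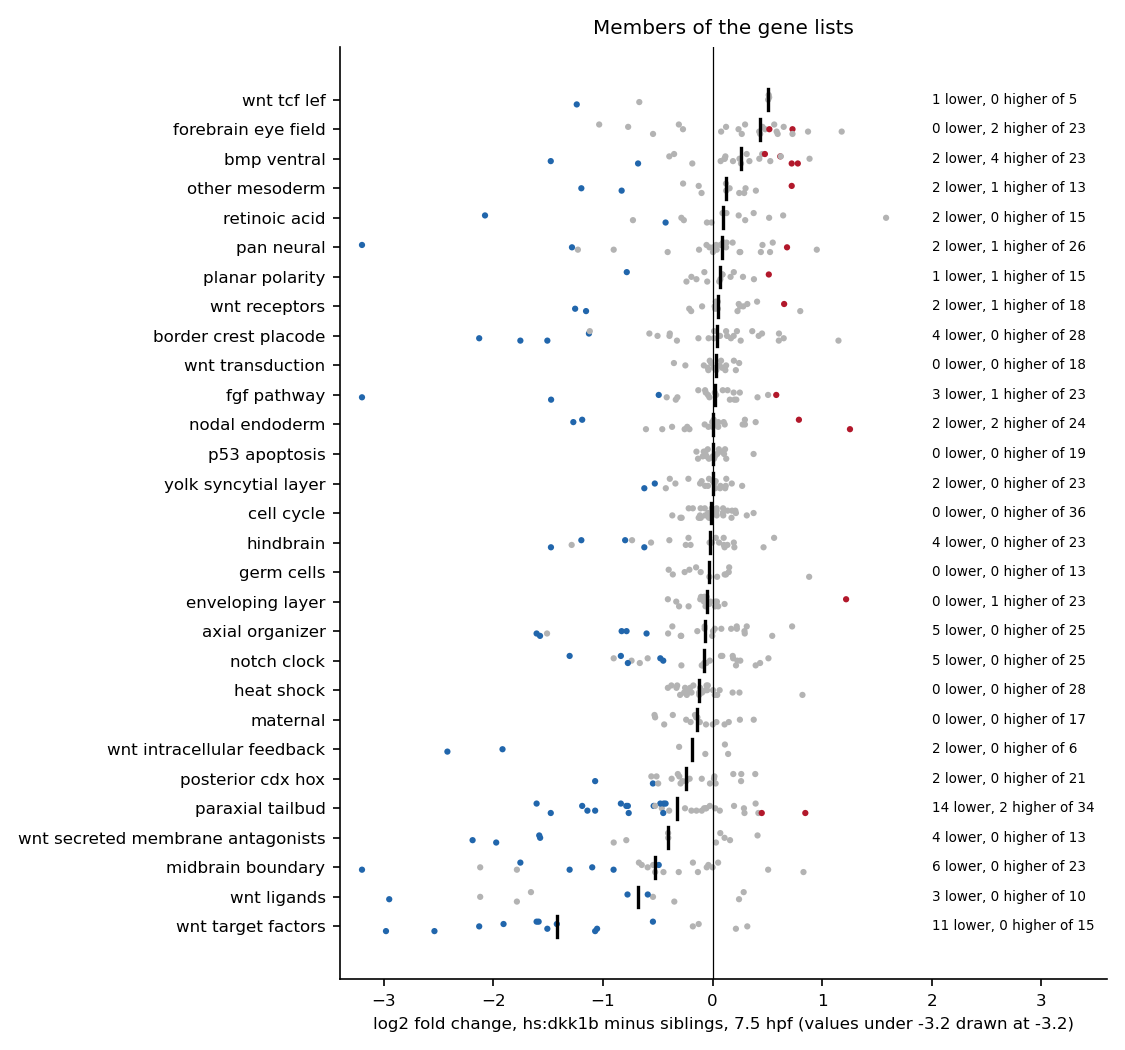
Log2 fold changes of the tested members of 29 gene lists, 1 row per list in the order of the medians, with blue for genes that fell, red for genes that rose and grey for the rest. Black bars are medians, and counts stand at the right. The list of Wnt target factors lies lowest, at a median of -1.42 with 11 of 15 lower, and those of Wnt transduction, heat shock, maternal, cell cycle, p53 and germ cell genes hold no changed member. Values under -3.2 are drawn at -3.2.

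In the neural plate, estimates of forebrain genes lay mostly above 0 and those of midbrain genes mostly below it. In the forebrain and eye field list 18 of 23 estimates were above 0 and the median was 0.43, with 2 genes higher and 0 lower. Over all 19503 tested genes 10030 estimates were above 0 and 9473 below it, and 0.154% were called higher. The zinc finger gene fezf2 (ENSDARG00000070677), which sets the front of the diencephalon, was at 37.2, 38.4 and 41.2 CPM in siblings and 69.7, 56.0 and 68.8 CPM in transgenic embryos. Its groups did not overlap, and the log2 fold change was 0.73 ± 0.13 (adjusted p = 0.0139). The eye field gene rx3 (ENSDARG00000052893) was at 46.1, 28.0 and 45.2 CPM and 63.8, 35.8 and 74.7 CPM. It was higher in the transgenic library of every pair, but the transgenic replicate 2 lay below 2 of the sibling libraries, so that the groups overlapped. Its log2 fold change was 0.52 ± 0.09 (adjusted p = 0.0172). Both calls rest on the pairing (adjusted p without it = 1 and 1). Both were also lost without each pair in turn, with adjusted p of 0.262, 0.0609 and 0.170 for fezf2 and 0.148, 0.0542 and 0.347 for rx3. The next members did not pass: otx2a, a forebrain and midbrain gene, was at 0.58 ± 0.13 (adjusted p = 0.0525), six7 at 0.59 ± 0.15, hesx1 at 0.46 ± 0.13, otx2b at 0.48 ± 0.18 and six3b at 0.30 ± 0.15. The telencephalic gene emx2 was at -1.04 ± 0.28 (adjusted p = 0.168).

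In the midbrain and midbrain-hindbrain boundary list 6 of 23 genes fell, none rose, and 19 estimates were below 0 (median -0.52). Over all 19503 tested genes 9473 estimates were below 0, and 0.59% were called lower. The boundary gene her5 (ENSDARG00000008796), which holds back neurogenesis at the boundary, stood at 27.0, 23.1 and 27.9 CPM in siblings and 8.89, 10.6 and 12.1 CPM in transgenic embryos, with all transgenic libraries below all sibling libraries. Its log2 fold change was -1.30 ± 0.18 (adjusted p = 0.00154). The Iroquois genes irx7 and irx1a, expressed across the midbrain-hindbrain territory, went from 142, 148 and 152 CPM to 91.2, 86.7 and 61.3 CPM and from 8.11, 9.24 and 13.8 CPM to 2.19, 2.96 and 4.09 CPM. On the log2 scale irx7 and irx1a stood at -0.90 ± 0.15 (adjusted p = 0.00867) and -1.75 ± 0.33 (adjusted p = 0.0195). The homeobox gene en2a was barely present, with 43, 15 and 55 counts in siblings and 1, 1 and 3 counts in transgenic libraries (adjusted p = 3.33e-04). No fold is given at such counts. The remaining 2 were meis2b at -1.10 ± 0.15 (adjusted p = 0.00153) and the boundary ligand gene fgf8a at -0.49 ± 0.08 (adjusted p = 0.00967).

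These boundary genes did not all hold equally. Without the pairing en2a, her5 and irx7 passed, while meis2b, fgf8a and irx1a did not (adjusted p = 1, 0.541 and 0.637). Without replicates 1, 2 and 3 in turn, irx7 had adjusted p of 0.0341, 0.0588 and 0.151, irx1a of 0.196, 0.134 and 0.192 and fgf8a of 0.100, 0.0606 and 0.113. The paired box gene pax2a was at -0.65 ± 0.25 (adjusted p = 0.462), and her11, which neighbours her5 in its expression, at -0.59 ± 0.13 (adjusted p = 0.0671). The pluripotency and midbrain gene pou5f3 was at -0.52 ± 0.13 (adjusted p = 0.0898), none of them past the threshold.

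Of 23 hindbrain genes 4 fell and none rose, against 0.59% of all tested genes called lower, but the median was only -0.03. The homeobox gene gbx1 (ENSDARG00000071418), the early hindbrain gbx gene of zebrafish, was at 28.3, 31.9 and 31.4 CPM in siblings and 9.33, 12.6 and 11.1 CPM in transgenic embryos. The groups did not overlap, and the log2 fold change was -1.48 ± 0.17 (adjusted p = 4.83e-04). The Hox gene hoxb1b (ENSDARG00000054033), the first of the cluster genes to mark the hindbrain, was at 118, 92.2 and 119.7 CPM and 44.6, 39.7 and 60.7 CPM, with a log2 fold change of -1.20 ± 0.24 (adjusted p = 0.0280). Its Hox cofactor partner meis3 and the homeobox gene hnf1ba were at -0.80 ± 0.10 (adjusted p = 9.63e-04) and -0.62 ± 0.08 (adjusted p = 0.00152), and hnf1ba is also a gene of the yolk syncytial layer. None of the 4 passed without the pairing (adjusted p = 0.125 for gbx1, 1 for hoxb1b, 1 for meis3 and 0.0763 for hnf1ba). Only hoxb1b was lost without a pair, its adjusted p being 0.299, 0.199 and 0.138 without replicates 1, 2 and 3. By DESeq2 with the pairing hoxb1b did not pass either (adjusted p = 0.247). The scarce gbx2 was at -1.29 ± 0.47 (adjusted p = 0.423).

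**Figure D4:**
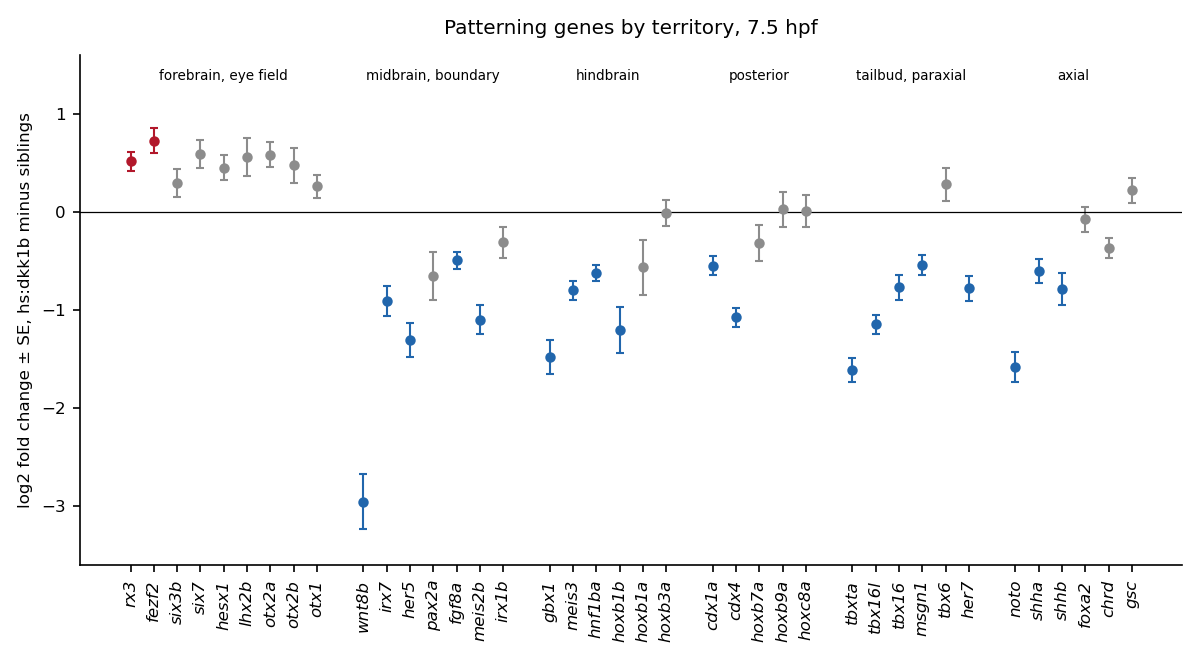
Log2 fold change (hs:dkk1b minus siblings) with its SE for genes of 6 territories, ordered from the front of the neural plate to the tailbud and the axial mesoderm. The genes were picked from the lists after their values were seen, and wnt8b is drawn with the midbrain. Blue and red mark genes past the threshold and grey the others. The forebrain and eye field genes drawn lie between 0.27 and 0.73, whereas 5 of the 23 estimates of the whole list were below 0, the lowest at -1.04 for emx2. The blue genes of the other territories lie between -0.49 and -2.95, beside grey ones near 0 such as hoxb3a, hoxb9a and foxa2.

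Posteriorly, the caudal genes cdx4 and cdx1a fell, while 1 gene with a Hox cluster name did. The caudal homeobox gene cdx4 (ENSDARG00000036292), which acts upstream of trunk Hox genes, was at 501, 575 and 448 CPM in siblings and 241, 266 and 217 CPM in transgenic embryos. The related cdx1a was at 158, 181 and 179 CPM and 101, 131 and 123 CPM. Transgenic libraries were below sibling libraries throughout for both. Their log2 fold changes were -1.07 ± 0.10 (adjusted p = 4.50e-05) and -0.54 ± 0.10 (adjusted p = 0.0172), the 2 changed genes of 21 in the cdx and posterior Hox list (median -0.24). That gene was hoxb1b, named above, of 32 tested, and the median over the 32 was -0.21. Estimates for hoxb5b, hoxb10a, hoxb7a and hoxd4a were -0.50 ± 0.24, -0.51 ± 0.29, -0.32 ± 0.19 and -0.56 ± 0.35, none past the threshold.

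Genes of paraxial mesoderm and tailbud progenitors made up the longest list of changes, with 14 of 34 lower and 2 higher (median -0.32). The T-box gene tbxta (ENSDARG00000101576), a zebrafish brachyury gene of notochord and tailbud, stood at 172, 218 and 143 CPM in siblings and 56.0, 69.8 and 48.4 CPM in transgenic embryos. The T-box gene tbx16l (ENSDARG00000006939) of the same progenitors was at 221, 274 and 196 CPM and 87.9, 126 and 99.3 CPM. In both genes replicate 2 was highest within each group, and no transgenic library reached a sibling one. Log2 fold changes were -1.61 ± 0.12 (adjusted p = 1.21e-05) and -1.14 ± 0.09 (adjusted p = 1.65e-05). The even-skipped gene eve1 of the ventral and posterior margin was at 37.8, 67.0 and 29.1 CPM and 12.6, 21.6 and 12.7 CPM, a log2 fold change of -1.48 ± 0.15 (adjusted p = 1.41e-04).

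Of the remaining falls in this list, all but those of cdx4, given above, and mixl1 were smaller than 1 on the log2 scale. The clock genes her7 and her12, the Notch-pathway genes hes6 and dld, and the forkhead gene foxb1a were at -0.77 ± 0.13, -0.84 ± 0.14, -0.45 ± 0.07, -0.48 ± 0.09 and -0.79 ± 0.11. The clock gene her1 and the Delta genes dla and dlc had estimates near 0 and did not pass. Estimates of tbx6, ripply1 and mespbb were above 0 and did not pass either. In the whole list 25 estimates were below 0 and 9 above it. The retinoic acid synthesis gene aldh1a2 was at -0.43 ± 0.09 (adjusted p = 0.0313) and the mesendoderm gene mixl1 at -1.19 ± 0.24 (adjusted p = 0.0356), where the 2 groups overlapped. The paraxial specifiers tbx16 and msgn1, which with the forkhead gene foxd5 were chosen after their values were seen, were at -0.77 ± 0.13 (adjusted p = 0.00749), -0.54 ± 0.10 (adjusted p = 0.0195) and -0.45 ± 0.10 (adjusted p = 0.0472). The somite gene meox1 rose, from 40.3, 23.2 and 40.3 CPM to 75.9, 39.8 and 72.4 CPM, with the transgenic library higher in each pair but overlapping groups. Its log2 fold change was 0.85 ± 0.17 (adjusted p = 0.0283), and that of the protocadherin gene pcdh8, also chosen after its values were seen, 0.45 ± 0.09 (adjusted p = 0.0271).

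Of the 16 changed genes in this list, tbxta and tbx16l passed without the pairing. Those 2, cdx4 and eve1 passed without each pair. Apart from cdx4, given above, the other 13 had adjusted p without the pairing from 0.543 for msgn1 to 1 for her12, mixl1, meox1, foxd5 and pcdh8, with 0.573 for eve1. Without replicates 1, 2 and 3 in turn, adjusted p was 0.127, 0.0852 and 0.0286 for her7, 0.0536, 0.132 and 0.0641 for her12 and 0.0397, 0.0929 and 0.0724 for hes6. For dld it was 0.165, 0.263 and 0.119, for aldh1a2 0.133, 0.341 and 0.102, for foxb1a 0.0551, 0.00382 and 0.0499, for mixl1 0.0184, 0.323 and 0.273 and for meox1 0.310, 0.182 and 0.263. For tbx16 it was 0.126, 0.0649 and 0.0687, for msgn1 0.202, 0.188 and 0.0908, for foxd5 0.361, 0.214 and 0.214 and for pcdh8 0.0639, 0.328 and 0.178.

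In the axial mesoderm the notochord genes noto and tbxta fell, and the organizer genes chrd and gsc did not pass. The homeobox gene noto (ENSDARG00000021201), which specifies the notochord, was at 37.3, 40.2 and 38.4 CPM in siblings and 12.1, 15.7 and 11.4 CPM in transgenic embryos. Both groups were tight and far apart, and the log2 fold change was -1.57 ± 0.15 (adjusted p = 6.80e-05), past the threshold without the pairing and without each pair. Besides tbxta, the LIM gene lhx1a fell at -0.83 ± 0.12 (adjusted p = 0.00320), and the hedgehog ligand genes shha and shhb fell at -0.60 ± 0.12 (adjusted p = 0.0321) and -0.79 ± 0.16 (adjusted p = 0.0363). These were 5 of 25 members (median -0.07), and none rose. Of the 25 estimates 14 were below 0 and 11 above it. The second brachyury gene tbxtb, col2a1a, col8a1a and foxj1a had estimates above 0 that did not pass. Neither foxa nor foxa2, both with estimates near 0, passed. The BMP antagonist gene chrd, at 371 ± 101 CPM in siblings and 284 ± 47.9 CPM in transgenic embryos (mean ± SD, n = 3 each), was at -0.37 ± 0.10 (adjusted p = 0.183). The prechordal gene gsc was at 0.22 ± 0.12 (adjusted p = 0.681). Without the pairing lhx1a, shha and shhb each had an adjusted p of 1, and without replicates 1, 2 and 3 in turn 0.0757, 0.0281 and 0.0220, 0.313, 0.265 and 0.106 and 0.326, 0.182 and 0.270.

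Genes of the BMP pathway and of ventral fates moved both ways. Of 23 tested, 4 rose and 2 fell (median 0.26, with 18 estimates above 0, against 10030 of all 19503 tested genes). The ligand gene bmp7a was at 76.4, 85.7 and 74.9 CPM in siblings and 131, 134 and 101 CPM in transgenic embryos, and the ventral ectoderm and blood gene gata2a at 164, 179.7 and 177 CPM and 299.8, 284 and 274 CPM. The feedback inhibitor gene smad6b was at 12.2, 17.1 and 14.0 CPM and 27.1, 26.9 and 20.3 CPM. Sibling and transgenic libraries did not overlap in these 3. On the log2 scale they rose by 0.62 ± 0.10 (adjusted p = 0.00480), 0.72 ± 0.13 (adjusted p = 0.0175) and 0.78 ± 0.17 (adjusted p = 0.0474), and the BMP target gene id3 was at 0.48 ± 0.10 (adjusted p = 0.0372). The falls were eve1, already given, and the ventral homeobox repressor gene ved at -0.68 ± 0.10 (adjusted p = 0.00306).

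None of the 4 rises passed without the pairing (adjusted p = 1 for bmp7a, smad6b and id3, 0.775 for gata2a), nor did ved (adjusted p = 0.573). Without replicates 1, 2 and 3 in turn, bmp7a had adjusted p of 0.0943, 0.0649 and 0.0156, gata2a of 0.272, 0.122 and 0.121, smad6b of 0.501, 0.223 and 0.143, id3 of 0.334, 0.0588 and 0.373 and ved of 0.0238, 0.0582 and 0.0433.

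At the neural plate border 4 of 28 genes fell and none rose (median 0.04): msx1a, msx1b, irx1a and the paired box gene pax3a, a crest and border gene at 20.5, 15.6 and 20.1 CPM in siblings and 7.77, 7.97 and 9.89 CPM in transgenic embryos. The log2 fold change of pax3a was -1.13 ± 0.14 (adjusted p = 9.31e-04), with an adjusted p of 1 without the pairing. The crest gene foxd3 was at -0.58 ± 0.15 (adjusted p = 0.115), and snai1b, which acts in cell migration, at 0.42 ± 0.09 (adjusted p = 0.0607).

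The pan-neural list held 1 rise and 2 falls among 26 genes (median 0.08). The neural progenitor gene sox2 (ENSDARG00000070913) was at 73.3, 67.2 and 87.7 CPM in siblings and 119.5, 118 and 126 CPM in transgenic embryos. Every transgenic library was above every sibling library, and the log2 fold change was 0.68 ± 0.09 (adjusted p = 0.00153). This was 1 of the 2 rises that passed without each pair (adjusted p = 0.0341, 0.0377 and 0.0104), though not without the pairing (adjusted p = 0.290). The proneural gene neurog1 fell from 11.0, 8.39 and 12.9 CPM to 5.01, 3.19 and 5.09 CPM, at -1.28 ± 0.17 (adjusted p = 0.00120) and with adjusted p of 0.338 without the pairing. The scarce sox21a fell as well, from 4.30, 0.957 and 2.48 CPM to 0.501, 0.114 and 0 CPM (adjusted p = 0.00749, 0.0729 without the pairing, and 0.0901, 0.0416 and 0.0742 without replicates 1, 2 and 3). The related sox19b was at 0.25 ± 0.07 (adjusted p = 0.194).

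Of 23 FGF pathway genes, 3 ligand genes fell and 1 receptor gene rose (median 0.02, with 11 estimates below 0 and 12 above it). The ligand genes fgf3, fgf17 and fgf18a did not pass, nor did dusp6, spry1, spry2, spry4, etv4, etv5a and etv5b. The ligand gene fgf24 (ENSDARG00000037677) of the posterior mesoderm lay between 14.6 and 29.5 CPM in siblings and between 5.51 and 9.79 CPM in transgenic embryos, with replicate 2 the highest in both groups. Its log2 fold change was -1.47 ± 0.14 (adjusted p = 6.80e-05), past the threshold with the pairing, without it and without each pair. The ligand gene fgf4 rested on 31, 10 and 31 counts in siblings and 0, 1 and 1 counts in transgenic embryos (adjusted p = 0.00251, 0.0695 without the pairing, and 0.0551, 0.0113 and 0.0541 without replicates 1, 2 and 3). The third fall was fgf8a, and the receptor gene fgfr1b rose at 0.58 ± 0.12 (adjusted p = 0.0395), with adjusted p of 0.135 without the pairing and 0.275, 0.440 and 0.106 without replicates 1, 2 and 3. The receptor gene fgfr1a and the feedback gene il17rd were at 0.41 ± 0.09 and -0.32 ± 0.08, neither past the threshold.

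Of 15 retinoic acid genes crabp2a and aldh1a2 fell and none rose (median 0.09). The binding protein gene crabp2a (ENSDARG00000073978) was at 27.0, 14.8 and 29.5 CPM in siblings and 5.20, 2.56 and 10.4 CPM in transgenic embryos, with the pairs at different levels but each lower in the transgenic library. The log2 fold change was -2.08 ± 0.22 (adjusted p = 1.35e-04), with an adjusted p of 0.0859 without the pairing. The receptor gene rarga and the breakdown enzyme gene cyp26c1, expressed in the anterior hindbrain and head, were at 0.52 ± 0.12 and 0.64 ± 0.20, and neither passed.

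In the Nodal and endoderm list 2 of 24 genes rose and 2 fell (median 0.01). The gene of the Nodal cofactor Foxh1 (foxh1, ENSDARG00000055630) was at 63.0, 80.9 and 67.0 CPM in siblings and 122, 144 and 100.2 CPM in transgenic embryos, and the endoderm and heart-field gene nkx2.7 (ENSDARG00000021232) at 8.72, 6.31 and 10.4 CPM and 23.1, 16.7 and 20.3 CPM. Groups did not overlap in either gene. The log2 rises were 0.79 ± 0.09 (adjusted p = 5.28e-04) and 1.25 ± 0.20 (adjusted p = 0.00495). The first passed without each pair (adjusted p = 0.0172, 0.0147 and 0.00222), the second did not (0.135, 0.0946 and 0.0370), and neither passed without the pairing (adjusted p = 0.523 and 0.250). The ligand gene gdf3 fell from 6.29, 7.21 and 6.09 CPM to 2.76, 2.62 and 2.73 CPM, at -1.27 ± 0.24 (adjusted p = 0.0220), with an adjusted p of 1 without the pairing and 0.148, 0.227 and 0.125 without replicates 1, 2 and 3. Together with mixl1 it made up the falls, while the Nodal antagonist gene lft1 was at -0.61 ± 0.15 and the endoderm gene gata5 at 0.30 ± 0.08.

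In the list of Notch and clock genes 5 of 25 fell and none rose (median -0.08), and these were her5, her7, her12, hes6 and dld. The others, her1, dla and dlc among them, did not pass. Of 13 other mesoderm genes, lhx1a and hoxb1b fell and gata2a rose, and tbx1 of the pharyngeal mesoderm, myf5 of muscle and hand2 of the heart were at 0.29 ± 0.10, -0.27 ± 0.14 and 0.30 ± 0.22.

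The other large rises under the naming rule were of genes at low level, and none of these passed without the pairing or without each pair. The homeobox gene dlx2a was at 2.21, 4.11 and 2.31 CPM in siblings and 4.89, 9.34 and 5.69 CPM in transgenic embryos, dmrt2a, a doublesex-related gene of the somites, at 2.81, 0.732 and 2.14 CPM and 6.33, 1.54 and 5.69 CPM, and the follistatin-like gene fstl1a at 5.96, 3.21 and 4.96 CPM and 10.6, 6.55 and 9.54 CPM. In each, the transgenic library of every pair was the higher one, though for dmrt2a the groups overlapped. Their log2 fold changes were 1.21 ± 0.25 (adjusted p = 0.0395), 1.23 ± 0.26 (adjusted p = 0.0393) and 0.93 ± 0.19 (adjusted p = 0.0387). Without the pairing all 3 had an adjusted p of 1, and without replicates 1, 2 and 3 in turn of 0.275, 0.364 and 0.328 for dlx2a, 0.358, 0.152 and 0.418 for dmrt2a and 0.275, 0.303 and 0.317 for fstl1a.

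Of the 145 changed genes 71 were in none of the lists, and the following were chosen from them after their values were seen. The LIM-only gene lmo4a (ENSDARG00000013853), which encodes a transcriptional cofactor, stood at 162, 199.8 and 154 CPM in siblings and 53.9, 80.6 and 53.5 CPM in transgenic embryos, which is a log2 difference of -1.47 ± 0.12 (adjusted p = 1.65e-05), and its paralogue lmo4b at -0.70 ± 0.10 (adjusted p = 0.00280). The Wnt co-activator gene lypd6, whose product is a membrane protein that aids Lrp6 in zebrafish, fell from 4.25, 3.38 and 3.22 CPM to 1.63, 0.626 and 1.13 CPM, at -1.71 ± 0.28 (adjusted p = 0.00660). A family of near-identical zinc finger genes, znfl1, had 8 tested members, of which 7 fell and none rose. Their log2 fold changes lay between -0.95 and -0.75, and as their reads can be split between copies the single values are uncertain. Of the 7 falls, 0 passed without the pairing and 2 passed without each pair. Summed over the family the siblings held 2692 to 2971 CPM and the transgenic embryos 1445 to 1748 CPM, with no overlap.

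Of the same 71, the solute carrier gene slc43a3b and the metalloprotease gene adamts18 passed with the pairing, without it and without each pair, at -1.28 ± 0.12 (adjusted p = 6.80e-05) and -0.61 ± 0.08 (adjusted p = 0.00200). Among the rises, shisa2a, of a family that in Xenopus holds back Wnt and FGF receptors in the endoplasmic reticulum, went from 107, 119.8 and 104 CPM to 189.7, 173 and 158 CPM, at 0.65 ± 0.13 (adjusted p = 0.0293). The T-box gene tbx3a was at 0.58 ± 0.11 (adjusted p = 0.0280) and the endothelial specifier gene npas4l at 0.70 ± 0.11 (adjusted p = 0.00554). Adjusted p without the pairing was 0.125 for lmo4a, 0.739 for lmo4b, 0.988 for lypd6, 0.147 for shisa2a, and 1 for tbx3a and npas4l. Without replicates 1, 2 and 3 in turn it was 0.0246, 0.0552 and 0.0272 for lmo4b, 0.0508, 0.0946 and 0.0535 for lypd6, 0.358, 0.135 and 0.190 for shisa2a, 0.375, 0.185 and 0.142 for tbx3a and 0.0968, 0.0649 and 0.0671 for npas4l. For lmo4a the call held without each pair.

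Lists for extra-embryonic layers, germ cells and cell state held few changes. Of 23 genes of the enveloping layer, the outer skin of the gastrula, the keratin gene krt96 alone rose, from 66.7, 52.0 and 24.2 CPM to 115, 112 and 84.6 CPM. Its log2 fold change was 1.22 ± 0.25 (adjusted p = 0.0355), with an adjusted p of 1 without the pairing and 0.0996, 0.211 and 0.367 without replicates 1, 2 and 3. The summed level of that list was 20545 to 23781 CPM in siblings and 20929 to 24217 CPM in transgenic embryos. Of 23 yolk syncytial layer genes 2 fell, hnf1ba and the transporter gene slc26a1 at -0.53 ± 0.10 (adjusted p = 0.0187), and the sums were 7370.2 to 8628 CPM and 6606 to 8494 CPM. The adjusted p of slc26a1 was 0.804 without the pairing and 0.232, 0.102 and 0.0908 without replicates 1, 2 and 3. For 13 germ cell genes the sums were 98.8 to 119 CPM and 91.9 to 111 CPM, and 0 of them passed by edgeR or DESeq2 or had an unadjusted p under 0.05. The layers were thus present in all libraries, with sums that overlapped between the groups.

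By edgeR 0 genes passed, with or without the pairing, in the lists of heat shock (28 tested), maternal (17), cell cycle (36) and p53 response genes (19), and 2, 2, 3 and 0 had an unadjusted p under 0.05. DESeq2 called 1 gene, in the maternal list. The lists had medians of -0.12, -0.14, -0.01 and 0.00. The summed level of the heat-shock list was 31470.3 to 49085 CPM in siblings and 25786 to 52492 CPM in transgenic embryos, the highest values being those of replicate 1. The chaperone gene hsp70l itself was at 0.82 ± 0.23 (adjusted p = 0.174). Whether the heat response bears on the changes above was not tested beyond leaving out replicate 1.

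Whether the effect of hs:dkk1b at 7.5 hpf differed from that at 5.5 hpf, the earlier time of the series with the same cross, the same heat shock and its own siblings, was tested by the difference of the paired effects. Of 19503 genes 3 differed (0.0154%), notum1a, noto and ism1, all with the lower log2 fold change at 7.5 hpf (671 genes had an unadjusted p under 0.05). At 5.5 hpf noto stood at 43.3, 57.1 and 39.1 CPM in siblings and 41.1, 62.2 and 39.1 CPM in transgenic embryos, and notum1a at 60.0, 103 and 48.9 CPM and 49.2, 116 and 41.1 CPM. Neither gene had separate groups at that time, in contrast to the levels at 7.5 hpf above. The 5.5 hpf levels of ism1 were 109, 152 and 92.4 CPM and 69.1, 123 and 59.1 CPM, lower in the transgenic library of each pair. The differences in log2 fold change, 7.5 minus 5.5 hpf, were -1.86 ± 0.21 (adjusted p = 0.00702) for notum1a, -1.59 ± 0.21 (adjusted p = 0.0131) for noto and -1.04 ± 0.13 (adjusted p = 0.00903) for ism1.

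These 3 differences rest on the design. Without the pairing 0 genes passed by edgeR (170 with an unadjusted p under 0.05, and 3 passed by DESeq2 with the pairing). Without replicate 1, 2 or 3 of the 7.5 hpf libraries 0, 1 and 0 passed, the 1 being notum1a. Of the 115 genes lower at 7.5 hpf, 110 had an estimate below 0 at 5.5 hpf. Of the same 115, 36 passed there, out of 45 genes lower at 5.5 hpf (0.231% of those tested). The median over the 115 at 5.5 hpf was -0.57, against 0.002 over all tested genes. Of the 30 higher genes 28 were above 0 at 5.5 hpf and 2 passed there, which were all the genes higher at 5.5 hpf (0.0103%, of 47 or 0.241% changed in all). For the targets sp5a and axin2 the log2 fold changes at 5.5 hpf were -2.27 ± 0.29 and -1.48 ± 0.23 (adjusted p = 0.00208 and 0.00853), and for the hindbrain genes gbx1 and hoxb1b -1.94 ± 0.18 and -2.24 ± 0.33 (adjusted p = 2.72e-04 and 0.00644).

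**Figure D5:**
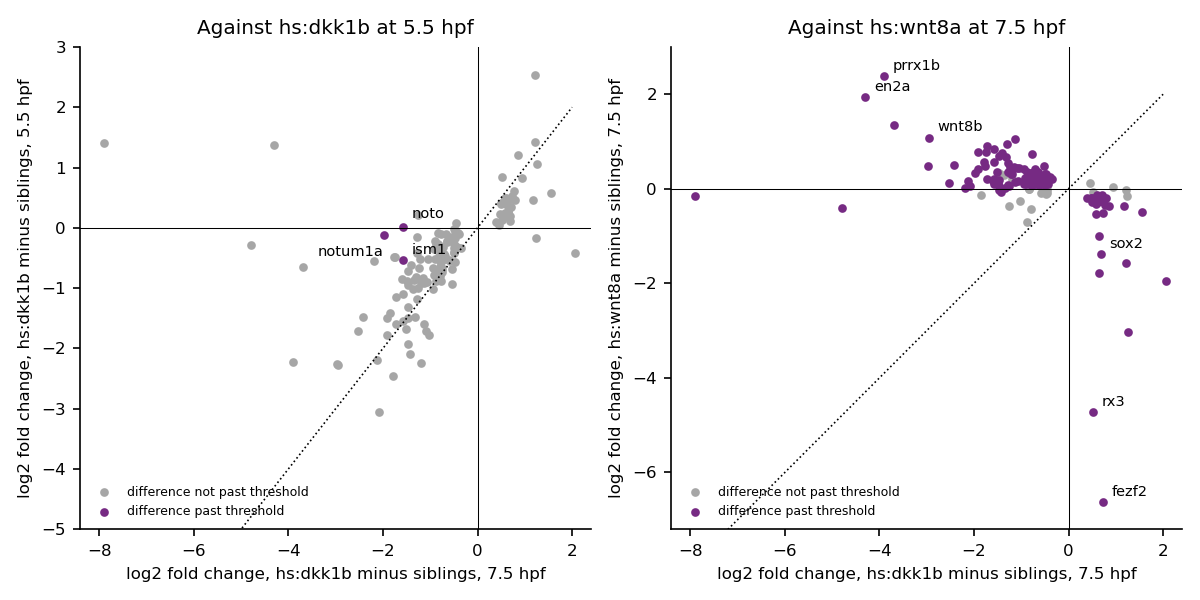
The 145 changed genes by their log2 fold change at 7.5 hpf in hs:dkk1b (horizontal) against that in hs:dkk1b at 5.5 hpf (left) and in hs:wnt8a at 7.5 hpf (right), each minus its own siblings. Purple marks genes for which the difference of the effects passed the threshold, 3 at the left and 122 at the right, and the dotted line marks equal values. Both differences contain the hs:dkk1b effect at 7.5 hpf, by which the genes were chosen. Most points at the left lie below 0 or above 0 on both axes, and most at the right on opposite sides of 0. The point farthest to the left in both panels is the gene at 0 in every transgenic library at 7.5 hpf.

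The opposite treatment, heat-shock-driven expression of the ligand wnt8a (hs:wnt8a/+ embryos of a cross to wild type, shocked for 30 minutes at 39 °C, 3 libraries and 3 of siblings), was set against hs:dkk1b at 7.5 hpf, each relative to its own siblings. The 2 transgenes differed in heat regime and in cross as well, and regime, cross and transgene cannot be told apart in this comparison. Siblings of hs:dkk1b and of hs:wnt8a at 7.5 hpf were not alike for every gene. Their means were 8.49 and 2.16 CPM for nkx2.7 and 2.11 and 0.53 CPM for en2a, but 110 and 103 CPM for sp5a. In the siblings of hs:wnt8a, replicate 1 held 179.7 CPM of wnt8a_1 against 2.33 and 14.8 CPM in the others, and 3647, 4218 and 3092 CPM were found in the transgenic libraries. The effects of the transgenes differed for 246 genes (1.26%), 101 with the higher value in hs:dkk1b and 145 with the lower. This count and those given below for hs:wnt8a leave out dkk1b but not the wnt8a entries. Without that pair of hs:wnt8a libraries the count was 202, of which 173 were shared, and without the pairing it was 39. Of the 115 genes lower in hs:dkk1b 97 were among the 246, as were 25 of the 30 higher ones. The difference contains the same hs:dkk1b estimates by which these genes were chosen. A gene can therefore be among the 246 with no change in hs:wnt8a, and this overlap is no evidence of an opposite response.

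Signs were mostly opposite. Of the 115 genes that fell with hs:dkk1b, 99 had an estimate above 0 with hs:wnt8a, and 10 rose there past the threshold, which is 10 of the 20 genes higher in hs:wnt8a (0.103% of those tested). These 10 were lef1, pax3a, lmo4a, nkd1, en2a, wnt8b, ism1, her5, tpbga and prrx1b, a paired-type homeobox gene outside the naming rule. Levels of en2a were low there too, at 0.354, 0.729 and 0.502 CPM in hs:wnt8a siblings and 1.81, 2.61 and 1.67 CPM in hs:wnt8a embryos. In the hs:dkk1b comparison prrx1b rested on 16, 30 and 9 counts in siblings and 1, 0 and 2 counts in transgenic embryos (adjusted p = 0.0160, and 0.133, 0.223 and 0.0212 without replicates 1, 2 and 3). With hs:wnt8a, nkd1 was at 0.79 ± 0.14 (adjusted p = 0.0246), her5 at 0.96 ± 0.16 (adjusted p = 0.0148) and wnt8b at 1.08 ± 0.21 (adjusted p = 0.0401). For axin2 and sp5a the values were 0.51 ± 0.21 and 0.48 ± 0.27, which did not pass, and for noto 0.20 ± 0.14. The median over the 115 was 0.21 with hs:wnt8a against -0.93 with hs:dkk1b. Over all tested genes the median with hs:wnt8a was 0.005.

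For the 30 genes that rose with hs:dkk1b the median was -0.30 with hs:wnt8a against 0.68 with hs:dkk1b. With hs:wnt8a 28 of them had an estimate below 0, and 6 fell past the threshold: shisa2a, nkx2.7, fezf2, rx3, sox2 and fzd8a, out of 55 genes lower there (0.282%, of 75 or 0.385% changed in all). Of these, nkx2.7 was scarce, at 1.32, 2.92 and 2.24 CPM in hs:wnt8a siblings and 0.181, 0.290 and 0.304 CPM in hs:wnt8a embryos. In hs:wnt8a embryos fezf2 was at 0.181, 0.628 and 0.659 CPM against 35.2, 57.0 and 56.7 CPM in their siblings, and rx3 at 1.45, 2.32 and 2.33 CPM against 39.4, 59.3 and 63.8 CPM. The hs:wnt8a libraries thus held close to none of these forebrain RNAs, at log2 fold changes of -6.63 ± 0.21 and -4.73 ± 0.13, while the rises with hs:dkk1b were under 1. The 5 genes with the strongest evidence of a difference between the transgenes were rx3 at 5.25 ± 0.16 (adjusted p = 1.39e-10), fezf2 at 7.36 ± 0.26 (adjusted p = 5.01e-10), six7 at 6.07 ± 0.24 (adjusted p = 1.72e-09), six3b at 3.97 ± 0.23 (adjusted p = 2.36e-07) and ism1 at -2.15 ± 0.13 (adjusted p = 3.16e-07), as hs:dkk1b minus hs:wnt8a in log2 fold change.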

How the data were processed

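RNA-seq of whole zebrafish embryos gave 1 table per library with raw counts, TPM and RPKM per gene for 31743 genes. The counts, TPM and RPKM are values the authors deposited, with the units per the file headers. Genome build GRCz11 and edgeR are named, with no role, per the submitters' processing notes. The sources used here name no aligner, counter or strand setting, so antisense or overlapping genes may share reads. Gene symbols are those of the files, and 28988 of the 31743 IDs were also in the gene name table used.

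All 23 libraries (13845788 to 20467185 counts each) entered 1 edgeR 4.0.16 quasi-likelihood fit (R 4.3.3, TMM scaling, filterByExpr), with a block for each replicate number within cross and time and 7 residual degrees of freedom. The hs:wnt8a groups at 5.5 hpf served only to estimate the spread. The Benjamini-Hochberg threshold was 0.05 over all tested genes. CPM are TMM-scaled and carry sampling error of the counts only within a library. Pairing by number follows the titles. Same-numbered libraries had correlated deviations from their group means (0.61, 0.53 and 0.46). Libraries of 1 group differed by 13.8 to 54.0 times the sampling variance, so none counts as a duplicate. The fit was tested on simulated counts.

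Genes were named by rule: the 15 largest falls and 10 largest rises among changed genes with all 3 pairs moving the same way and a mean log2 CPM of at least 1, clone names left out; up to 6 genes per list with the smallest adjusted p; all members of 4 Wnt lists; 5 genes per further comparison; and a set of patterning genes. The members and lists were chosen with earlier results of these data known. Alternatives were no block, RLE scaling, no filter on low counts, DESeq2 1.42.0, only the 6 libraries, leaving out each pair, and, added after seeing the data, edgeR's newer quasi-likelihood form, no block without replicate 1, and leaving out hs:wnt8a replicate 1. RPKM were not used.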

Additional observations from a re-analysis of the deposited data

Results flagged for a closer look

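The effect of hs:dkk1b differed between 7.5 and 5.5 hpf for 3 genes by the test of the difference itself. The difference in log2 fold change, 7.5 minus 5.5 hpf, was -1.86 for notum1a, -1.59 for noto and -1.04 for ism1. All 3 had paired edgeR adjusted p under the threshold and the lower log2 fold change at 7.5 hpf. Of the 3, only ism1 also fell past the threshold at 5.5 hpf, at -0.53 ± 0.09 (paired edgeR adjusted p = 0.0174). The calls of noto and ism1 were lost without the pairing and without any of the 3 pairs at 7.5 hpf, and that of notum1a without the pairing and without replicate 1 or 3.

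Between hs:dkk1b and hs:wnt8a at 7.5 hpf the effects differed for 246 genes. The differences in log2 fold change, hs:dkk1b minus hs:wnt8a, were 5.25 for rx3, 7.36 for fezf2, 6.07 for six7, 3.97 for six3b and -2.15 for ism1. These 5 calls held without the pairing and without each pair of hs:dkk1b libraries, and without hs:wnt8a replicate 1. With neither the pairing nor replicate 1 of hs:dkk1b, fezf2 was no longer past the threshold (edgeR adjusted p = 0.0711), and the other 4 were. The heat regimes and the crosses of the transgenes differed, and regime, cross and transgene cannot be told apart here.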

How the results depend on the processing

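The direction of every gene named with a value was the same under all alternatives that gave it one. The count of 145 changed genes was 171 with DESeq2, 150 with RLE scaling and 175 with the newer quasi-likelihood form. It was 242 with no filter on low counts (28319 genes tested, 145 shared) and 234 with only the 6 libraries (140 shared). Without the replicate block, that is without pairing by number, it was 29, and 9 when replicate 1 was left out as well. Leaving out each pair gave 52 to 62 genes. The 3 genes that differed between times became 0 without the replicate block, 8 with no filter, and 0 to 1 without each pair. The 246 genes that differed between the transgenes became 39 without the replicate block and 141 to 202 without each pair of hs:dkk1b or replicate 1 of hs:wnt8a. Of 133 genes given with values, 86 passed the threshold, and 60 of the 86 were lost without the block, 46, 43 and 42 without replicates 1, 2 and 3, and 5 with DESeq2, which gave no adjusted p for 12 of the 133. No call was lost with RLE scaling, no filter or the newer form. With only the 6 libraries 5 of the 133 were not tested, the changed genes fgf4 and prrx1b among them, and no call was lost among those tested. Each fit without a pair has fewer samples; the cause of the other changes was not tested. Genes with few counts in the transgenic libraries, such as en2a, fgf4 and sox21a, are limited by depth.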
